A study of Homo sapiens with 6 samples.

Results

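The inflammatory chemokines CXCL1, CXCL2, CXCL3, CXCL5, CXCL8 and CCL20 and the cytokines IL1A, IL1B, IL36G and IL24 were followed in HO-1-N-1 cells, a human oral squamous cell carcinoma line, in which Sam68 had been knocked down. These genes were picked by name, and all 10 were among the 21462 genes of the count table. Sam68, the product of KHDRBS1, is an RNA-binding protein. Cells were grown in medium with fetal bovine serum and received either control siRNA, which gave libraries numbered 1, 3 and 5, or Sam68 siRNA, which gave libraries numbered 1, 2 and 3. All 6 libraries came from transfected cells of this 1 line, and no untransfected cells were analysed here. Neither the siRNA sequences nor the harvest time was given in the sources used here. Nothing in the labels ties libraries of a group to separate cultures; the p-values therefore reflect the spread among these libraries alone, and that spread may be technical. Poly(A) RNA was sequenced, and fewer producing cells and less RNA per cell cannot be told apart in such bulk libraries.

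Chemokines are small secreted proteins that guide leukocytes. CXCL1, CXCL2, CXCL3, CXCL5 and CXCL8 carry the ELR residues before their CXC motif and draw neutrophils through CXCR2, and CXCL8 also through CXCR1, whereas CCL20 draws cells that carry CCR6. IL1A, IL1B and IL36G are interleukin 1 family cytokines that act on neighbouring cells through MYD88 and NF-kB, and squamous epithelia are a known source of IL1A and of IL36G. IL24 belongs to the interleukin 10 family, not the interleukin 1 family. NF-kB and AP-1 are the transcription factors best known to induce most of these genes, and AU-rich elements in their 3' untranslated regions are known to shorten the life of their mRNAs.

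In hg38 coordinates, the CXC genes lie on chromosome 4, with CXCL8 at 73740541 to 73743716 and CXCL1 at 73869393 to 73871308 on the plus strand. CXCL5 at 73995642 to 73998677, CXCL3 at 74036589 to 74038807 and CXCL2 at 74097040 to 74099196 follow on the minus strand. IL1A (112773925 to 112784493) and IL1B (112829751 to 112836816) lie on the minus strand of chromosome 2, with IL36G (112973203 to 112985658) in the same region on the plus strand. CCL20 lies elsewhere on chromosome 2 (227805739 to 227817564, plus strand) and IL24 on chromosome 1 (206897443 to 206904139, plus strand). No member had an exon that overlapped another gene in GENCODE 29.

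Printed here are the promoters of the 4 most abundant members with a match to the kappa B motif, the sequence that NF-kB binds. As they were chosen for that match, they do not show how common it is among these genes. They run from 250 bases before to 50 bases after the RefSeq start, on the gene's own strand, from GRCh38.p14: CXCL1 chr4:73869143-73869442 (plus strand), CXCL3 chr4:74038640-74038939 (minus), CXCL2 chr4:74099146-74099445 (minus) and CCL20 chr2:227813592-227813891 (plus). The CCL20 start used by RefSeq lies within the longer span that the count table gives the gene. Capitals mark the kappa B match.
CXCL1: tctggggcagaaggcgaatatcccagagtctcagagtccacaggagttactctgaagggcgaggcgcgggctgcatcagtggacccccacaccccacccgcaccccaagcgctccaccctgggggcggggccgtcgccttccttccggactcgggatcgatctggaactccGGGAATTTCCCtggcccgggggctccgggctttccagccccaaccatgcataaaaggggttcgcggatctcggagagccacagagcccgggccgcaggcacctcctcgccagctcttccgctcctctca
CXCL3: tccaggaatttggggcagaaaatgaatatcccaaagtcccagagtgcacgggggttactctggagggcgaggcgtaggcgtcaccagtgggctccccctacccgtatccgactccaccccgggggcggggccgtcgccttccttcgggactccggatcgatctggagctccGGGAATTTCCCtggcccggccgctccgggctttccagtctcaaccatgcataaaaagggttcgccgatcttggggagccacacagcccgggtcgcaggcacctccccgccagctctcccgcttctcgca
CXCL2: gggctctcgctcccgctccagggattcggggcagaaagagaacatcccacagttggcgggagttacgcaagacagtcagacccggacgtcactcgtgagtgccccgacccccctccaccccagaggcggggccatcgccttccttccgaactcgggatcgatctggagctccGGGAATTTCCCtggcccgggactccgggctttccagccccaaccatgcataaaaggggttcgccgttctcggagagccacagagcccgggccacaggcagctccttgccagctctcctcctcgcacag
CCL20: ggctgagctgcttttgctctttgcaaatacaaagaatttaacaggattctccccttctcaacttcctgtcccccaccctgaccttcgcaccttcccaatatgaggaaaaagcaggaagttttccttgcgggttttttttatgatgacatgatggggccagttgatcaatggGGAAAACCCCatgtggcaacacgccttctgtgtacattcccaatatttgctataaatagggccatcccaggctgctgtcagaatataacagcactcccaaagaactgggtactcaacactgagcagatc

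The same 11 letters stood in CXCL1, CXCL2 and CXCL3, beginning 79, 78 and 79 bases before the start, and also in CXCL5, where they began 91 bases before it. CCL20 held another form of the motif, matched on the opposite strand, beginning 79 bases before its start. Across 35116 promoters of the same length, 11.3% held a kappa B match on either strand, and overlapping matches were taken as 1. No match to this form of the motif was in the windows of CXCL8, IL1A, IL1B, IL36G and IL24. An AP-1 match (TGANTCA, in 7.71% of promoters) was in the windows of CXCL8, beginning 137 bases before the start, and of IL1A. A C/EBP match (TTNNGNAA, in 36.8%) was in those of CXCL2, IL1A, IL1B, with 3 matches, and IL24, and a TATA box (TATAAA, in 11.5%) was 31 bases before the start of CXCL8 and 29 before that of CCL20. For IL1A, with 2 windows in RefSeq, AP-1 and C/EBP matches were in both and TATAAA was in 1. A match is only a run of letters and was not tested as a binding site.

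In the 3' untranslated regions, 9 of 10 members held at least 3 copies of the pentamer ATTTA, all but IL36G with 1 copy, against 43.3% of 11953 tested genes. The AU-rich nonamer TTATTTATT was in 5 of 10, with 5 copies in CXCL2, 3 in CXCL1, 2 in IL1B and 1 each in CXCL3 and CXCL8, against 8.81% of tested genes. CXCL1, CXCL2 and CXCL3 also resembled each other closely, with 90.7% to 94.4% identity of coding sequence and shared stretches of 55 to 97 bases, and CXCL5 was 87.5% identical to CXCL6. Reads may have been split between these copies, so the levels of CXCL1, CXCL2, CXCL3 and CXCL5 are uncertain.

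The libraries held 16099488 to 17336651 counts. KHDRBS1 stood at 248, 228 and 190 TPM (the authors' level per transcript length, with the same total in each library) in controls 1, 3 and 5 and at 28.9, 32.9 and 31.4 in Sam68 siRNA libraries 1, 2 and 3, and was 7.15-fold lower (log2 fold change -2.84 ± 0.09 SE, edgeR quasi-likelihood test, Benjamini-Hochberg adjusted p 1.56e-08). Control 5 stood apart from the other controls. The chi-square per degree of freedom of its counts was 38 against control 1 and 32 against control 3, compared with 6.18 between controls 1 and 3 and 2.96 to 6.77 among Sam68 siRNA libraries. Mitochondrial transcripts took 2.27% of its counts, 0.158% and 0.216% in controls 1 and 3, and 0.3% to 0.671% under Sam68 siRNA. The members' levels are therefore given with control 5 apart, and their comparisons with and without it. Values for other genes are from all 6 libraries unless stated. All 12 epithelial markers were tested, at a summed 16347 to 17321 TPM, and 3 of them rose, KRT5, TP63 and ITGA6 (log2 fold changes 0.20, 0.33 and 0.20, edgeR adjusted p 0.00692, 0.0124 and 0.0333), or 5 without control 5. TP63 was lost without Sam68 siRNA library 3 (adjusted p 0.0726), and ITGA6 without control 3 or any of the Sam68 siRNA libraries (0.0556 to 0.138). Of 12 leukocyte markers 5 were at 0 in every library, and PTPRC, the defining one, had counts in 1 library only (0.0428 TPM in Sam68 siRNA library 2), while CD68 and CD14 were present, and the list summed to 48.9 to 62.6 TPM in controls and 64.3 to 69.4 under Sam68 siRNA. Of 10 endothelial markers 2 were at 0, with a sum of 1.55 to 2.02 TPM in controls and 1.18 to 1.62 under Sam68 siRNA. The 10 fibroblast markers, 2 of them at 0, summed to 31.9 to 41.9 TPM in controls and 20 to 26.1 under Sam68 siRNA, where FAP (log2 fold change -0.87, edgeR adjusted p 0.00238) and ACTA2 (-0.43, 0.0407, with exons that overlap FAS) fell. The ACTA2 call was lost without any library other than control 5 (adjusted p 0.0564 to 0.145). Whether cells of another type had a part in any result below was not tested.

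The members differed widely in level. IL1B was highest, with a mean of 221 TPM over the 6 libraries, then CXCL1 at 159 and IL1A at 146, and only 6.44%, 9.29% and 10.2% of tested genes stood above them. The range of CXCL1 overlapped those of IL1B and IL1A, although IL1B was above CXCL1 in 6 of 6 libraries, and the lowest IL1B value (171 TPM) lay just above the highest of IL1A (167). CXCL8 followed at 21.7 TPM, apart from IL1A above it and CXCL3 (12) below it. The range of CXCL2 (9.03) overlapped those of CXCL3 and of CCL20 (6.33), whereas every CXCL3 value (8.34 TPM or more) lay above every CCL20 value (8.18 or less). IL36G (2.5) stood below CCL20 and above IL24 (0.771), which was not apart from CXCL5 (0.385). The IL24 and CXCL5 levels rest on at most 15 and 9 counts per library, and both genes fell below the filter on low counts.

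**Figure D1:**
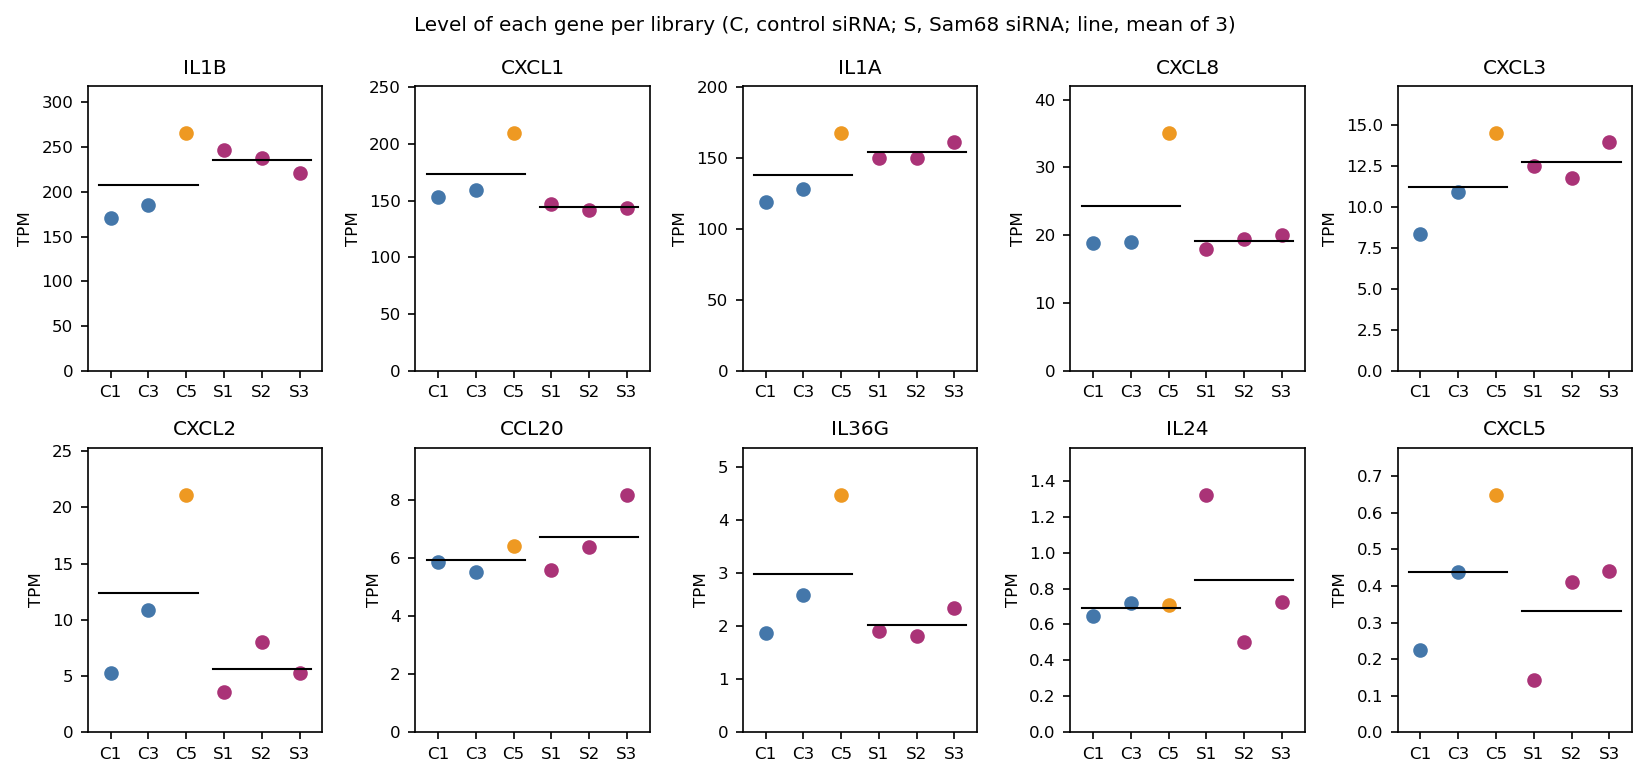
Level of each of the 10 genes in each library, in TPM on a linear axis from 0, with controls 1 and 3, control 5 and the Sam68 siRNA libraries in separate colours and the mean of 3 libraries as a black line. Control 5 was the highest library for 8 of the 10 genes, with CCL20 highest in Sam68 siRNA library 3 and IL24 in Sam68 siRNA library 1.

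With all 6 libraries, none of the 8 members tested was called, where 19.1% of 12351 tested genes were (9.33% rose and 9.76% fell). None had an unadjusted p below 0.05 in the edgeR test, against 33.1% of tested genes. DESeq2 called 1 member, CXCL2, where it called 17.7% of the genes to which it gave an adjusted p. The members' median log2 fold change was -0.07, against a median of -0.00 over all tested genes. With control 5 set aside, 2 of 8 were called and both rose, IL1A and IL1B, where 21.4% of 12482 genes were called, 10.2% as rises and 11.2% as falls. An unadjusted p below 0.05 was then reached by 3 of 8 members, against 34.1% of tested genes, and the members' median was 0.15, against 0.00. Without control 5 the share of members called was near this background.

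CXCL1, the most abundant chemokine of the set, stood at 153 and 159 TPM in controls 1 and 3, 209 in control 5, and 147, 142 and 143 under Sam68 siRNA. All Sam68 siRNA libraries lay below all controls, with the nearest values 147 and 153. Its log2 fold change was -0.28 ± 0.13 SE with control 5 (edgeR adjusted p 0.172) and -0.09 ± 0.07 without it (adjusted p 0.397), so the gene was not called either way. Such groups without overlap were found for 1 of 8 members, CXCL1, against 38.0% of tested genes, of which 19.3% lay higher and 18.7% lower under Sam68 siRNA.

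CXCL2, a close copy of CXCL1 with the same receptor, stood at 5.25 and 10.9 TPM in controls 1 and 3, 21.1 in control 5, and 3.6, 8.07 and 5.29 under Sam68 siRNA. Control 3 lay above every Sam68 siRNA library and control 1 below 2 of them, so the groups overlapped. The log2 fold change was -1.15 ± 0.60 SE (edgeR adjusted p 0.247), and -0.48 ± 0.38 without control 5 (adjusted p 0.428). DESeq2 gave an adjusted p of 0.0333, and the authors' deposited table listed a log2 fold change of -1.15 with an FDR of 0.0284. The adjusted p of CXCL2 ranged from 0.0596 to 0.472 when each library was left out in turn in the edgeR test.

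CXCL3, the remaining close copy, went the other way in value: 8.34 and 10.9 TPM in controls 1 and 3, 14.5 in control 5, and 12.5, 11.8 and 14 under Sam68 siRNA. Control 5 lay above every Sam68 siRNA library and controls 1 and 3 below every one. The log2 fold change was 0.16 ± 0.21 SE (edgeR adjusted p 0.635) and, without control 5, 0.43 ± 0.18 (adjusted p 0.11), so CXCL3 was not called. CXCL5 gave 3, 6 and 9 counts in controls 1, 3 and 5 and 2, 6 and 6 under Sam68 siRNA, too few to test.

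CXCL8, the main neutrophil attractant of human epithelia, stood at 18.8 and 19 TPM in controls 1 and 3, 35 in control 5, and 18, 19.5 and 20 under Sam68 siRNA. The value of control 5 was 1.85 times the mean of the other controls, and the other 5 libraries lay between 18 and 20 TPM. The log2 fold change was -0.36 ± 0.29 SE with control 5 (edgeR adjusted p 0.446) and 0.05 ± 0.11 without it (adjusted p 0.81). CCL20 was the tested member that differed least between control 5 and the other controls, at 5.86 and 5.54 TPM in controls 1 and 3, 6.43 in control 5, and 5.58, 6.4 and 8.18 under Sam68 siRNA. The groups overlapped, and its log2 fold change was 0.17 ± 0.22 SE (edgeR adjusted p 0.646), or 0.26 ± 0.25 without control 5 (adjusted p 0.49).

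IL1A, an alarmin active in its uncleaved form, stood at 119 and 128 TPM in controls 1 and 3, 167 in control 5, and 150, 150 and 161 under Sam68 siRNA. All Sam68 siRNA libraries lay above controls 1 and 3 and below control 5. With control 5 the log2 fold change was 0.14 ± 0.14 SE (edgeR adjusted p 0.553). Without it IL1A rose 1.27-fold, by 0.34 ± 0.07 on the log2 scale (adjusted p 0.00168). With any other library left out as well, its log2 fold change was 0.30 to 0.39, both ends from fits with a lone control. When each of the 6 libraries was left out in turn, it ran from 0.03 (without control 1) to 0.34 (without control 5). The edgeR adjusted p of those fits reached 0.906.

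IL1B, made as a precursor that caspase 1 cleaves, followed the same order. It stood at 171 and 185 TPM in controls 1 and 3, 265 in control 5, and 247, 238 and 221 under Sam68 siRNA, so that control 5 was again the highest library and controls 1 and 3 the lowest. The log2 fold change was 0.17 ± 0.21 SE with control 5 (edgeR adjusted p 0.636). Without control 5 IL1B rose 1.34-fold, by 0.43 ± 0.07 on the log2 scale (adjusted p 0.000245). With any other library left out as well, its log2 fold change was 0.38 to 0.48, both ends again from fits with a lone control. When each of the 6 libraries was left out in turn, it ran from 0.04 (without control 1) to 0.43 (without control 5). The edgeR adjusted p of those fits reached 0.929. In a test against a fold change of 1.5, neither IL1A nor IL1B was called.

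IL36G, an epithelial interleukin 1 family cytokine, stood at 1.87 and 2.59 TPM in controls 1 and 3, 4.48 in control 5, and 1.91, 1.82 and 2.34 under Sam68 siRNA. Control 5 was 2.01 times the mean of the other controls and the remaining libraries overlapped. Its log2 fold change was -0.58 ± 0.37 SE (edgeR adjusted p 0.302) and -0.12 ± 0.36 without control 5 (adjusted p 0.852). IL24 gave 7, 8 and 8 counts in controls 1, 3 and 5 and 15, 6 and 8 under Sam68 siRNA and was not tested.

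**Figure D2:**
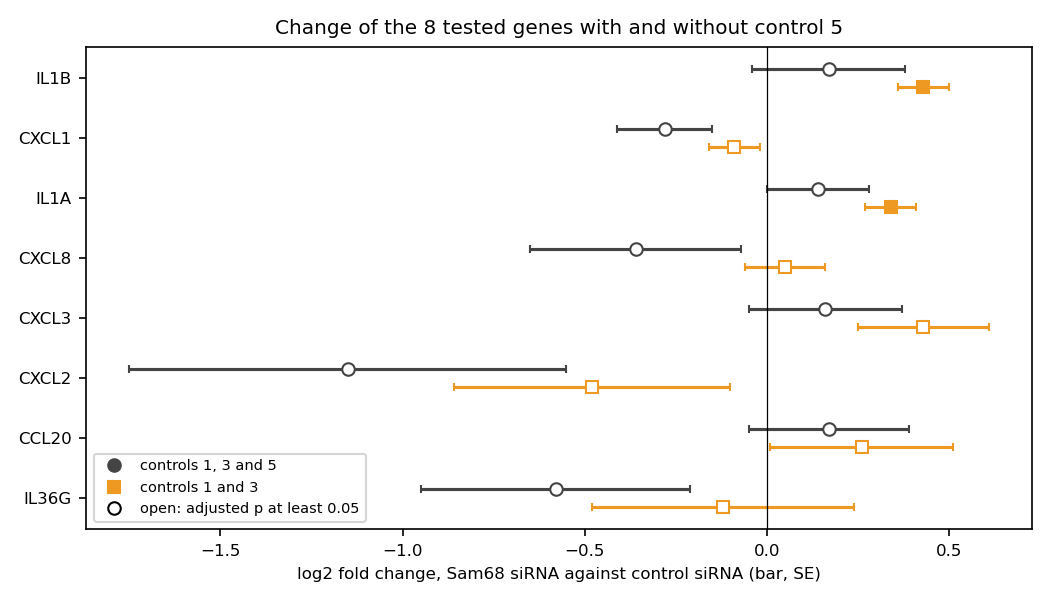
Log2 fold change of the 8 tested genes under Sam68 siRNA, with the SE as bars, from all 6 libraries and with control 5 left out, filled where the adjusted p was below 0.05. Only IL1A (0.34) and IL1B (0.43) are filled, both without control 5, and CXCL8 changed sign between the fits.

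Control 5 was the highest of the 3 controls for 8 of the 8 tested members, against 19.1% of tested genes, and the highest of all 6 libraries for 7 of 8, against 11.8%. The exception was CCL20. Control 5 exceeded the mean of controls 1 and 3 by 1.13-fold (CCL20) to 2.62-fold (CXCL2) among the tested members, with a median of 1.5 over all 10. With control 5 set aside, the groups did not overlap for 4 of 8 members, against 48.9% of tested genes: CXCL1 was lower (24.3% of genes were) and CXCL3, IL1A and IL1B were higher (24.7% were).

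The summed TPM of the 10 genes was 485 and 522 in controls 1 and 3, 724 in control 5, and 586, 578 and 576 under Sam68 siRNA. IL1A and IL1B made up 59.9%, 60% and 59.7% of that sum in controls 1, 3 and 5 and 67.6%, 67% and 66.3% under Sam68 siRNA. The means were 59.8% ± 0.152 and 67% ± 0.668 (SD, n = 3 each), the groups did not overlap, and control 5 was like the other controls here. The ratio of CXCL1 to IL1B in TPM was 0.897, 0.86 and 0.79 in controls 1, 3 and 5 and 0.595, 0.599 and 0.65 under Sam68 siRNA. As IL1B, CXCL1 and IL1A together made up 88.5% to 92.7% of the sum, this ratio largely restates the share. The ratio of IL1A to IL1B overlapped between the groups, at 0.632 to 0.696 in controls and 0.607 to 0.732 under Sam68 siRNA. These ratios were chosen after the values were seen and were given no test.

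Over the 6 libraries, the log2 levels of the 8 tested members were positively correlated in all 28 pairs (Pearson r 0.09 to 0.96, median 0.61). Over the 5 libraries without control 5, 17 of 28 pairs were positive, with r from -0.92 (CXCL1 and IL1A) to 0.93 (CXCL3 and IL1A) and a median of 0.24. The points share libraries and scaling, so these values describe the libraries only. Among the 10495 other genes whose mean reached 5 CPM (counts scaled to library size), those most like the mean of the members were ABCC5, PI3, VMP1, MT-CO1, MT-ND5, S100A9, MTERF1 and MT-ND6 (r 0.98 to 0.99 over 6 libraries). PI3, the protease inhibitor elafin, stood at 83.7, 115 and 222 TPM in controls 1, 3 and 5 and 114, 132 and 139 under Sam68 siRNA. S100A9, a calprotectin subunit, stood at 948, 1332 and 2390 TPM in those controls and 1192, 1287 and 1452 under Sam68 siRNA. MT-CO1, a mitochondrial oxidase subunit, stood at 928, 1097 and 11274 TPM in those controls and 1511, 2647 and 2924 under Sam68 siRNA. The correlation takes no account of size. MTERF1 ran only from 7.9 TPM in control 1 to 8.62 in control 5, and VMP1 from 101 to 121. The order of libraries in all these genes, with control 5 highest and control 1 lowest, follows from how they were chosen.

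The other genes of the pathway were followed by fixed lists, and counts are out of the genes tested. Over all tested genes, 9.33% rose and 9.76% fell with all 6 libraries, and 10.2% and 11.2% without control 5. Each list count below is to be read beside these shares, and no list was tested against them. As the strand setting is not known, levels are uncertain for named genes with an exon that overlaps another gene in GENCODE 29, which are CXCL16, IL6, LIF, IL18BP, IL1R1, IL1RAP, IL1RL1, IL18R1, IL20RB, CCR6, CHUK, TAB3, REL, CYLD, NFKBIB, SAA1, SAA2, PLAU, IRF1, BDKRB1, PHLDA1, DUSP6, IER2, HNRNPD and KHSRP, with VMP1 among the genes most like the members and CD68, ITGA6, FAP and ACTA2 among the markers. Among other CXC and CC chemokines, 1 of 7 rose and 2 fell. The counts were 1 and 2 with any library left out as well, with 8 genes tested without control 5. CXCL11, an interferon-induced CXCR3 ligand, stood at 56.4, 56.6 and 45.9 TPM in controls 1, 3 and 5 and 81.8, 84.5 and 83.6 under Sam68 siRNA, and rose by 0.65 ± 0.08 SE on the log2 scale (edgeR adjusted p 0.000301). The membrane-bound chemokine CX3CL1 fell from a mean of 13.5 ± 1.04 TPM (SD, n = 3) to 9.27 ± 0.65 (edgeR adjusted p 0.00116), and the mucosal chemokine CCL28 fell from 23.9 ± 1.87 to 17.3 ± 1.3 (adjusted p 0.00547). Groups did not overlap for any of these. CXCL16, the most abundant of the list, was at 132 ± 6.29 TPM in controls and 132 ± 6.94 under Sam68 siRNA. The list had a median log2 fold change of -0.24, against -0.00 over all genes.

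Of other interleukin 1, 10 and 6 family and myeloid growth cytokines, 0 of 10 rose and 2 fell with control 5, and 2 rose and 2 fell without it (list medians -0.04 and 0.19). IL18, an interleukin 1 family cytokine that caspase 1 also cleaves, stood at 159, 154 and 145 TPM in controls 1, 3 and 5 and 108, 121 and 113 under Sam68 siRNA, with no overlap. It fell by 0.43 ± 0.07 SE on the log2 scale (edgeR adjusted p 0.00243), and its adjusted p was at most 0.018 with any library left out. IL6 stood at 7.68, 7.17 and 12.3 TPM in controls 1, 3 and 5 and 3.15, 4.37 and 5.11 under Sam68 siRNA, and fell by 1.12 ± 0.27 SE on the log2 scale (edgeR adjusted p 0.0155). The IL6 call was lost without Sam68 siRNA library 1 (adjusted p 0.0567) or 2 (0.0595). The genes that rose without control 5 were CSF3, a neutrophil growth factor, and IL11. CSF3 stood at 2.79 and 3.93 TPM in controls 1 and 3, 7.95 in control 5, and 5.76 to 6.6 under Sam68 siRNA. IL11 stood at 14.1 and 12.4 TPM in controls 1 and 3, 16.2 in control 5, and 15.9 to 24.3 under Sam68 siRNA. Neither was called with all 6 libraries (edgeR adjusted p 0.56 and 0.0728). LIF, the other most abundant cytokine beside IL18, stood at 62.6 and 66.3 TPM in controls 1 and 3, 114 in control 5, and 64.1 to 75.9 under Sam68 siRNA and was not called (log2 fold change -0.26, and 0.12 without control 5).

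Of the receptors, the chain that binds IL1A and IL1B fell. IL1R1 stood at 73.4, 84.6 and 64.3 TPM in controls 1, 3 and 5 and 46.4, 43.7 and 49.4 under Sam68 siRNA, with no overlap. It fell by 0.68 ± 0.07 SE on the log2 scale (edgeR adjusted p 0.000197; at most 0.00293 with any library left out). Its co-receptor IL1RAP fell from 7.21 ± 0.638 to 5.82 ± 0.404 TPM (SD, n = 3, adjusted p 0.029), a call that was lost in 4 of the 6 fits with a library left out: without control 1, control 3 or Sam68 siRNA library 1 or 3 (adjusted p 0.0531 to 0.111). These were the 2 of 7 receptors called, with a list median of 0.15. The interleukin 36 receptor IL1RL2 stood at 3.53 ± 0.135 TPM in controls and 5.04 ± 1.33 under Sam68 siRNA (adjusted p 0.0956). IL18R1, at 4.72 ± 0.366 and 5.25 ± 0.107 TPM, IL20RB, a receptor chain for IL24, at 132 ± 14.1 and 125 ± 7.44, and the IL24 receptor chain IL22RA1, at 0.912 ± 0.202 and 1.37 ± 0.303, were not called. IL1RL1, which overlaps IL18R1, was called as a rise in the fit without control 5 (log2 fold change 1.71, edgeR adjusted p 0.0307). It rests on few counts, 6 and 3 in controls 1 and 3, 16 in control 5, and 20, 10 and 16 under Sam68 siRNA. With all 6 libraries IL1RL1 was not called (log2 fold change 0.81, edgeR adjusted p 0.313). The chemokine receptors CXCR1, CXCR2 and CCR6 were at or near 0 in all libraries, with at most 3 counts for CXCR2 in control 5.

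Among antagonists and decoys, 0 of 6 tested genes rose or fell with control 5 and 0 of 7 without it, and none had an unadjusted p below 0.05 in the edgeR test in either fit. IL1RN, the secreted antagonist of IL1R1, stood at 30.5, 32.5 and 27.5 TPM in controls 1, 3 and 5 and 32.4, 30.8 and 31.3 under Sam68 siRNA (log2 fold change 0.06 ± 0.08 SE, edgeR adjusted p 0.638). The ratio of IL1B to IL1RN was 5.62, 5.68 and 9.62 in those controls and 7.6, 7.7 and 7.04 under Sam68 siRNA. SIGIRR, ACKR3, IL1R2, CCRL2 and IL18BP had log2 fold changes of 0.12, 0.18, -0.09, -0.05 and -0.51 with control 5 and 0.14, 0.17, 0.08, -0.02 and -0.11 without it.

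Of 17 tested genes for processing and release of these cytokines, 2 rose and 1 fell (list median -0.01). CAPNS1, the small calpain subunit, of the proteases that cleave IL1A, rose from 317 ± 14 to 400 ± 1.15 TPM (SD, n = 3, edgeR adjusted p 0.00276). CTSC rose from 84.4 ± 7.15 to 107 ± 2.36 TPM (adjusted p 0.00895), but missed the threshold without Sam68 siRNA library 2 (0.0512). CASP8 fell from 32.1 ± 3.87 to 26.4 ± 1.49 TPM (adjusted p 0.037), a call lost without control 3 or any of the Sam68 siRNA libraries (0.055 to 0.139). Without control 5, CASP1, the enzyme that cleaves IL1B, was also called as a fall (edgeR adjusted p 0.0554 with control 5 and 0.0352 without). It stood at 90.6 and 97.5 TPM in controls 1 and 3, 85 in control 5, and 73.6 to 84.4 under Sam68 siRNA.

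In receptor signalling, 0 of 18 rose and 3 fell, MAP3K8, CHUK and TAB3 (log2 fold changes -0.36, -0.27 and -0.26; edgeR adjusted p 0.0184, 0.0202 and 0.0441; list median -0.04). MAP3K8 is a kinase that activates ERK signalling, CHUK is an I-kB kinase, whose exons overlap those of ERLIN1, and TAB3 is an adaptor of the kinase MAP3K7. Between 0 and 3 genes of this list were called as falls when each library was left out, with 0 without Sam68 siRNA library 2 and 1 without Sam68 siRNA library 1 or 3 or control 3. MAP3K8, CHUK and TAB3 were all lost without control 3 (edgeR adjusted p 0.0738, 0.0637 and 0.117), where the 1 fall was another gene. MAP3K8 was also lost without Sam68 siRNA library 1 or 2 (0.0683 and 0.0669). Among these fits CHUK was called only without control 5 (0.00794, against 0.0531 to 0.0748). TAB3 was not called without control 5 (0.0602) or without Sam68 siRNA library 2 or 3 (0.171 and 0.12). Of 13 NF-kB factors and inhibitors, 1 rose and 2 fell (list median -0.20), and without control 5 NFKBIB was called as a fall as well. NFKB1, the p50 subunit, rose by 0.24 ± 0.07 SE on the log2 scale, REL, another subunit, fell by 0.32 ± 0.10, and CYLD, a deubiquitinase that restrains the pathway, fell by 0.22 ± 0.06 (edgeR adjusted p 0.0326, 0.0401 and 0.0277). Each of these 3 calls was lost in at least 4 fits with a library left out, and none held without control 3 or without Sam68 siRNA library 2 or 3.

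Of 23 tested NF-kB and inflammatory response genes, 3 rose and 4 fell with control 5, and 5 rose and 4 fell without it (list medians -0.15 and 0.12). BIRC3, an inhibitor of apoptosis induced by NF-kB, stood at 39.9, 34.7 and 36.1 TPM in controls 1, 3 and 5 and 23.7, 21.7 and 26.7 under Sam68 siRNA, and fell by 0.63 ± 0.08 SE on the log2 scale (edgeR adjusted p 0.000585, at most 0.00626 with any library left out). The acute-phase genes SAA1 and SAA2, close copies whose levels are uncertain, fell by 0.28 and 0.42 on the log2 scale (edgeR adjusted p 0.0076 and 0.012). Complement C3 fell from 442 ± 63.1 to 328 ± 21.2 TPM (SD, n = 3, adjusted p 0.0242), a call lost without control 3 or any of the Sam68 siRNA libraries (0.0519 to 0.0911). The 3 rises, PLAU, IRF1 and BDKRB1, were each lost in 5 or 6 of the 6 fits with a library left out, down to 0 rises in 5 of those fits.

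**Figure D3:**
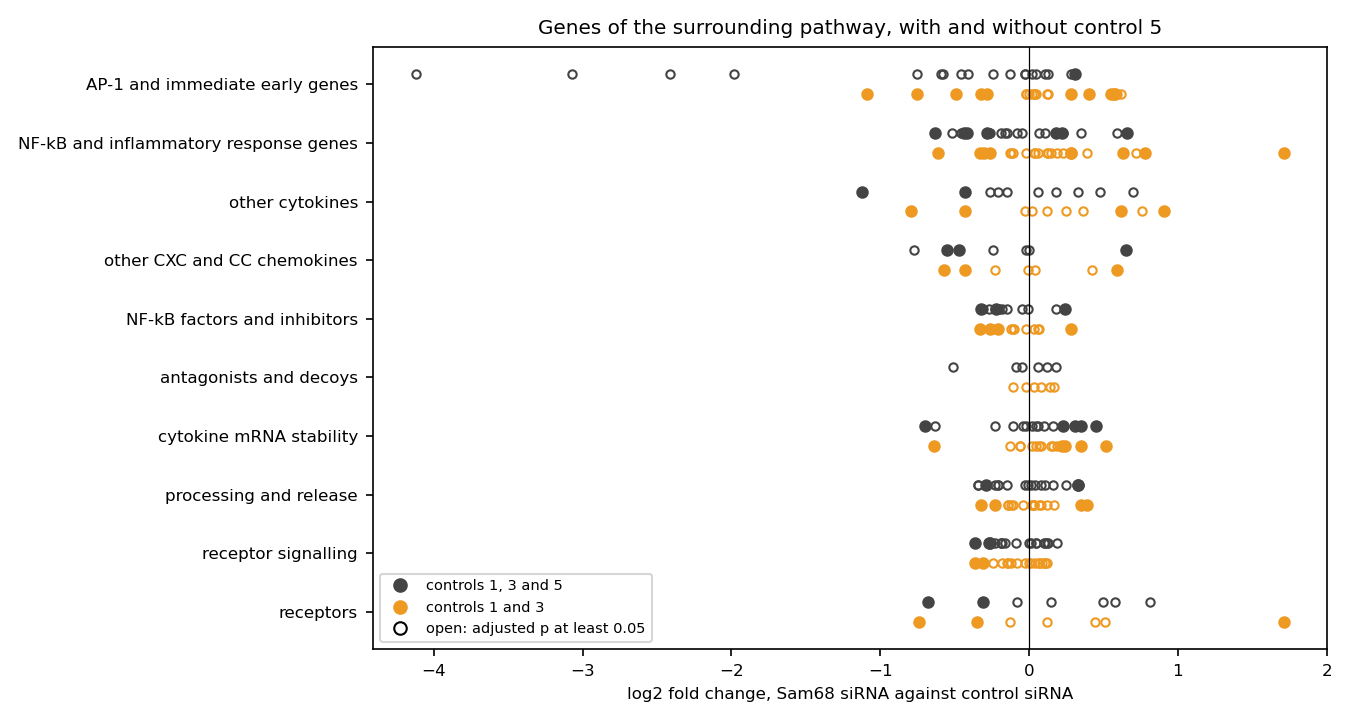
Log2 fold change under Sam68 siRNA of each gene of the 10 pathway lists that was tested in both fits. The fit of all 6 libraries and that without control 5 are in separate colours, filled where the adjusted p was below 0.05. CXCL11 lies at 0.65 among the other chemokines and IL6 at -1.12 among the other cytokines, both with all 6 libraries. IL1R1 lies at -0.68 among the receptors in that fit. The chemokine and interleukin members are not drawn.

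AP-1 and immediate early genes, which respond within a short time to growth factors and stress, had the highest mean deviation of control 5 among the lists (0.98 on the log2 scale, against 0.60 for the members). FOS stood at 8.81 and 9.88 TPM in controls 1 and 3, 196 in control 5, and 3.87, 4.56 and 4.46 under Sam68 siRNA. EGR1 stood at 29.9 and 38.1 TPM in controls 1 and 3, 238 in control 5, and 18.5, 18.6 and 22.6 under Sam68 siRNA. Control 5 was the highest library for 13 of 21 tested genes of this list, 7 of 8 members, 11 of 23 NF-kB and inflammatory response genes, 5 of 10 other cytokines and 0 of 7 receptors, against 11.8% of all tested genes. With all libraries 1 of 21 rose, PHLDA1 (log2 fold change 0.31, edgeR adjusted p 0.0194, lost in 4 of the 6 fits with a library left out), and 0 fell (list median -0.13), while without control 5 there were 5 rises and 5 falls (median 0.04). FOS fell by 1.09 and EGR1 by 0.75 on the log2 scale in the fit without control 5 (adjusted p 6.05e-05 and 0.00033). In that fit FOSL1, DUSP6, DUSP5, PHLDA1 and MYC rose and DUSP1, KLF6 and IER2 also fell. What set control 5 apart was not tested.

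**Figure D4:**
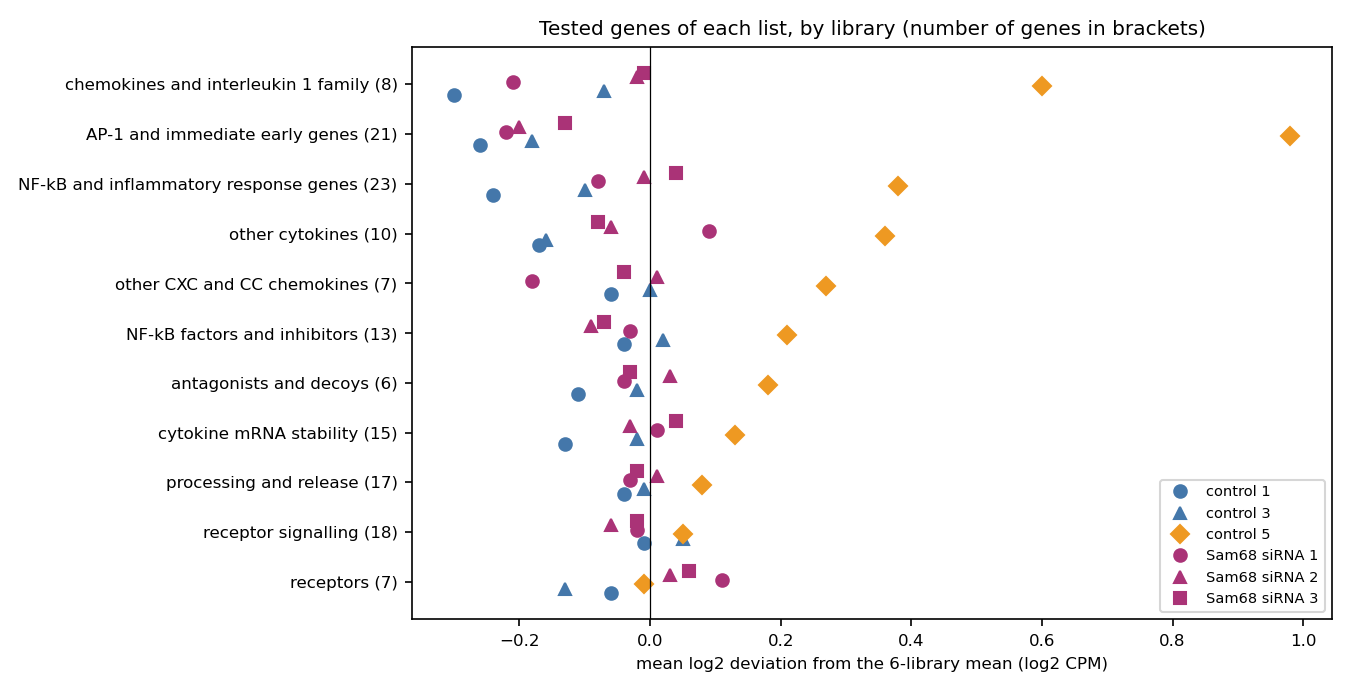
Mean deviation of each list's tested genes from their own mean over the 6 libraries, on the log2 scale, for each library. Control 5 lies at 0.60 for the chemokine and interleukin members and at 0.98 for AP-1 and immediate early genes, against 0.01 over all tested genes, and the 3 Sam68 siRNA libraries lie between -0.21 and -0.01 for the members.

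Of 15 regulators of cytokine mRNA stability, 4 rose and 1 fell, with and without control 5 (list medians 0.05 and 0.08). KHSRP, a KH-domain protein that promotes decay of AU-rich mRNAs, rose from 183 ± 12.9 to 234 ± 14.9 TPM (SD, n = 3, edgeR adjusted p 0.00292, at most 0.021 with any library left out). HNRNPD, which also binds AU-rich elements, rose from 124 ± 16.2 to 154 ± 6.93 TPM (adjusted p 0.0129, but 0.0514, 0.0526 and 0.0577 without control 3 and Sam68 siRNA libraries 1 and 2). YBX1 rose by 0.23 and ARID5A by 0.45 on the log2 scale (edgeR adjusted p 0.00913 and 0.0343). YBX1 was lost without Sam68 siRNA library 2 (0.062) and ARID5A without any library other than control 5 (0.0615 to 0.135). CPEB4, a cytoplasmic polyadenylation factor, fell from 4.39 ± 0.48 to 2.72 ± 0.281 TPM (adjusted p 0.00249, at most 0.0195 with any library left out). ZFP36, which binds the same elements and promotes decay, stood at 29.3 and 38.2 TPM in controls 1 and 3, 77.4 in control 5, and 30.9 to 33.5 under Sam68 siRNA, and was not called (log2 fold change -0.63, edgeR adjusted p 0.408, and -0.06 without control 5, adjusted p 0.737). ARID5A and ZFP36 lie outside the naming rule and were chosen after their values were seen.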

How the data were processed

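Poly(A) RNA of 6 libraries, 3 with control siRNA and 3 with Sam68 siRNA, had been sequenced, with hg38 as the build, per the submitters' processing notes. No aligner, counting tool or strand setting was given in the sources used here. Raw counts per gene, RPKM values and TPM values were deposited by the authors, per the file headers. They also deposited a signal headed CPM, which was not used, and a comparison with a signed fold score, a log2 fold change, a p-value and an FDR, whose test is not named.

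The deposited counts entered edgeR 4.0.16 (R 4.3.3) unchanged, with filterByExpr (minimum count 10, minimum total 15), TMM scaling and the robust quasi-likelihood F-test. Benjamini-Hochberg adjustment ran over all tested genes, and genes with an adjusted p below 0.05 are called. Log2 fold changes are Sam68 siRNA minus control, and their SE is the one the F statistic implies. The steps were tested on simulated data. Levels are the authors' TPM, and intervals for single counts were not made. For likeness, log2 CPM used a prior count of 2.

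The members, the 10 pathway lists, the 4 lists of cell markers and the tests were chosen with earlier results of these data known. Named genes are all members, up to 4 called genes per pathway list by smallest p, receptors, antagonists and decoys with a mean of at least 1 TPM, the 2 most abundant genes of both lists of other ligands, and the 8 genes most like the members. Other named genes (those called without control 5, markers, PLAU, IRF1, BDKRB1, ARID5A and ZFP36) were chosen after their values were seen.

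Alternatives were RLE and upper-quartile scaling, no filter, at least 50 counts in 3 libraries, DESeq2 1.42.0, limma-voom (limma 3.58.1), no robust estimation, limma-trend on log2 TPM with a pseudocount of 1 or 0.1, with and without a filter at 1 TPM, a test against a fold change of 1.5, a replicate block, each library left out, and RPKM or scaled CPM as the level. Leaving out further libraries beside control 5 was added after seeing the data. Promoters were taken from RefSeq (GRCh38.p14), where all 10 members matched by symbol, and transcripts from GENCODE 29, with 1 per gene. Python 3.11.15 was used with pandas 2.3.3 and Biopython 1.88.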

Additional observations from a re-analysis of the deposited data

How the results depend on the processing

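The count of members called with all 6 libraries was 0 in the edgeR test and under most settings, 1 with DESeq2, 2 with the replicate block, and 0 to 2 with each library left out, the 2 being without control 5. With controls 1 and 3 only it was 2 under every setting run except the test against a fold change of 1.5 (0), and 2 with any other library left out as well, where a lone control is assumed to vary like the Sam68 siRNA libraries. The count over all genes, 2358, became 1563 and 1556 with limma-trend on log2 TPM (pseudocounts 1 and 0.1), 973 with no filter on TPM, 28 in the test against 1.5, 1046 with the replicate block, and 1112 to 2666 with each library left out. The median ratio of control 5 to controls 1 and 3 over the members was 1.5 in TPM and 1.61 in scaled CPM. Log2 fold changes reversed, none of them called, for CXCL3 (-0.02 to 0.43 with each library left out, the lowest without control 1), CXCL8 (-0.53 without control 1 to 0.05 without control 5, and 0.02 with the replicate block), and, with controls 1 and 3 only, CXCL2 (-0.90 to 0.13) and IL36G (-0.32 to 0.13), the highest with control 1 as the only control. The cause was not tested.

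Both groups have a replicate 1 and a replicate 3 only. Same-numbered libraries had deviations correlated at -0.07 and 0.08, and other pairs at -0.12 to 0.10. With so few same-numbered pairs, these values do not decide whether the numbers pair libraries. With the block, control 5 and Sam68 siRNA library 2 are fitted exactly, so it compares numbers 1 and 3 alone. The edgeR test with the block called IL1A (log2 fold change 0.34, adjusted p 0.0376) and IL1B (0.40, adjusted p 0.029). Control 5 has no part in this comparison, so these calls are not separate from those of the fit without control 5. CXCL5 and IL24, with at most 15 counts in a library, were too low to test at this depth.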
